A study of Homo sapiens with 12 samples.

Results

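The proteasome genes were examined here as a family. They were defined by name: every probe of the array annotated to a gene symbol that starts with PSM, a letter from A to G and a number. This took 77 of 47230 probes and 48 of 20046 named genes. Of the 48 genes, 44 encode subunits, activators, an inhibitor or assembly factors of the proteasome, and 4 share only the name (PSMC3IP, PSME3IP1, PSMD6-AS2 and PSMG3-AS1). PSMA7, PSMC5, PSMD7 and PSMD13, which encode further subunits, were not analysed here.

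The proteasome degrades proteins that carry ubiquitin chains. Its 20S core is a barrel of alpha rings, which gate entry, and beta rings, in which PSMB5, PSMB6 and PSMB7 carry the proteolytic sites. The 19S cap binds and unfolds substrates, with a base of ATPases and a lid that removes ubiquitin. Interferon is known to induce PSMB8, PSMB9 and PSMB10, which take the places of PSMB5, PSMB6 and PSMB7 in newly built cores and so give the immunoproteasome, and the activator made of PSME1 and PSME2. Both are known for their part in making the peptides that MHC class I molecules present.

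RNA from 12 cultures, described as biological triplicates of 4 conditions, was hybridised to single-colour Illumina bead arrays. Per the labels the cells were the prostate cancer line C4-2B, named C4-2B/181 in the titles and C4-2B/Rx2dox in the design text, carrying RUNX2, a transcription factor of bone formation, under the control of doxycycline (dox). All cells grew in RPMI with 10% serum and then spent 48 h in phenol-red-free RPMI with 5% charcoal-stripped serum, which is low in steroids. The groups then received for 48 h ethanol (vehicle), dox at 250 µg/ml, the androgen dihydrotestosterone (DHT) at 10 mM, or DHT with dox at those doses. The doses are printed as the labels state them and their units were not resolved. No dox-treated culture without the RUNX2 construct was analysed here, so dox itself and what it induces cannot be told apart. Whether the line is 1 clone is not given in the sources used here.

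The labels did not match the lineage markers. Of 10 prostate luminal markers with a probe, 3 were above the background limit of 147.5 intensity units on all 12 arrays (TMPRSS2, SLC45A3 and MSMB). ACP3 was above it on 8, KLK3, HOXB13 and TRPM8 on 1, and KLK2, FOLH1 and STEAP2 on 0. Of 12 breast luminal markers 8 were above it on all arrays, with SCGB2A2 and ANKRD30A on 0. The groups are therefore named below by their labels alone. The summed level of the breast markers was 52541 to 54746 on vehicle, 76271 to 77826 on dox, 48470 to 53765 on DHT and 72353 to 74399 on DHT with dox arrays. That of the prostate markers was 2063 to 2141, 1695 to 1727, 2591 to 2789 and 1846 to 1905. These sums moved with the treatments, and their part in the results below was not tested. Of 10 immune markers 2 were above the limit on all arrays (CD68 and HLA-DRA), with PTPRC, CD3E, CD74 and NKG7 on 0. The fibroblast (0 of 7) and endothelial (0 of 5) markers had none above it on all arrays. The region that each of the 2 RUNX2 probes reads is not stated, so they check nothing of an induced copy. The brighter one read 206.8 to 225.8 on vehicle, 244.6 to 293.1 on dox, 270.9 to 313.0 on DHT and 258.6 to 331.1 on DHT with dox arrays, so that it was as high with DHT alone and overlapped there. The means of the other were 169.3, 168.0, 161.2 and 159.0.

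A gene was tested when the mean of its brightest probe passed the background limit in any group, and a change was called when the limma p-value, adjusted by the Benjamini-Hochberg method over all 12122 genes tested, was under 0.05. In this way 45 of the 48 members were tested, 41 of them subunits, activators or assembly factors. PSMA8 (the testis alpha subunit), PSMB11 (the thymus catalytic subunit) and PSMF1 (an inhibitor of the 20S core) were not above the limit on any array and reached at most 144.4, 143.2 and 134.3. PSMB8, PSMB9 and PSMD9 passed in some groups only, and the other 42 were above the limit on all 12 arrays. Changes are given as log2 differences of intensity ± SE of the fit, with 3 arrays in each group. The arrays had been matched in their distribution, so each change is relative to all genes on the array. In such bulk samples, fewer cells of a type and less RNA per cell cannot be told apart.

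On arrays labelled dox, transcripts of the standard proteasome and of its assembly chaperones were more often called higher than lower, and PSMB10 and PSME1, of the interferon-inducible forms, were lower. Without DHT, 17 of 45 members were called higher and 3 lower, beside 16.1% and 16.7% of all genes tested. The median change of the members was 0.117 and that of all genes -0.006. With DHT present, 10 members were called higher and 3 lower, beside 14.3% and 19.2% of all genes, with medians of 0.054 and -0.016. Of the 41 subunits, activators and assembly factors, 16 were higher and 2 lower without DHT, and 9 and 2 with it.

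The count of higher calls without DHT rested on small changes. It was 10 without vehicle replicate 3, 11 without dox replicate 1 and 9 when arrays were centred on 13 housekeeping genes, with 3, 4 and 3 lower. Of those 13 genes, 4 were themselves called higher without DHT (HPRT1, HSP90AB1, PPIA and TFRC) and 1 lower (SDHA). That is 30.8% higher, beside 16.1% of all genes, so they are no unmoved reference. Centring each array on the middle level of those genes, which is the level of 1 gene on an array but not the same gene on all arrays, turned the split to 1 higher and 20 lower without DHT and to 0 and 18 with it, while it moved the median of all genes to -0.351 and -0.292. The gene in the middle was HSP90AB1 on all vehicle and DHT arrays and 1 dox array, and PGK1 or HPRT1 on the other arrays with dox. HSP90AB1 itself was called higher with dox, by 0.41 in each comparison. Such a shift is shared by all genes of an array, so a rise smaller than it must turn sign. These turns therefore say nothing of a single gene. That last scaling aside, 9 of the 20 calls without DHT and 9 of the 13 with it held under every other alternative run.

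**Figure D1:**
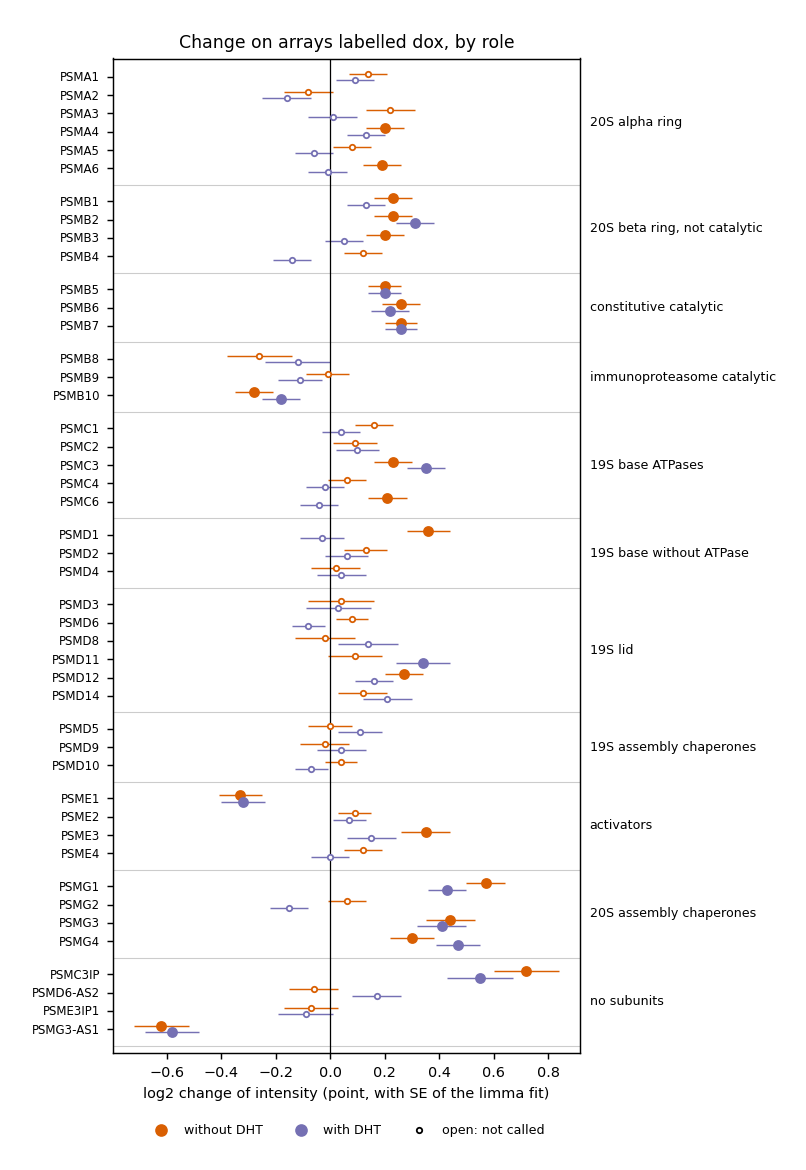
Log2 change of intensity on arrays labelled dox for each of the 45 members tested, grouped by role, without DHT (orange) and with DHT (purple). Points are the limma estimates with SE bars (3 arrays a group), filled where the change was called. The constitutive catalytic subunits and PSMG1, PSMG3 and PSMG4 lie to the right and PSMB10 and PSME1 to the left of 0. Against the middle housekeeping level, PSMB5, PSMB6 and PSMB7 in both comparisons and PSMG4 without DHT turn to the left. That reference shifts all genes of an array alike.

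The comparisons without and with DHT share no arrays. In both, the same 9 members were called higher (PSMB2, PSMB5, PSMB6, PSMB7, PSMC3, PSMC3IP, PSMG1, PSMG3 and PSMG4) and the same 3 lower (PSMB10, PSME1 and PSMG3-AS1). How many of all genes were called in both was not counted, so nothing is read from the size of these overlaps. Across the 45 members the 2 sets of changes correlated with r = 0.804 and had the same sign for 32. Without the 4 genes that share only the name, r was 0.712 over 41 members, with the same sign for 29. For all 12122 genes r was 0.862, with the same sign for 9212. Members share arrays and chemistry, so these are descriptions. The difference between the dox changes without and with DHT, the interaction, was called for 0 of 45 members by limma, with 5 at an unadjusted p under 0.05, beside 0.289% of all genes called.

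The 3 constitutive catalytic subunits rose in both comparisons relative to all genes. Against the middle housekeeping level, which shifts all genes of an array alike, their signs turned. PSMB5, which carries the chymotrypsin-like activity, read 8907, 8309.8 and 7987 on vehicle arrays and 9672, 9547 and 9701 on dox arrays. It read 8271, 8588 and 8271 with DHT and 9838, 10006 and 9111 with DHT and dox. All 6 arrays with dox lay above all 6 without it. The change was 0.20 ± 0.06 without DHT (limma adjusted p = 0.0134) and 0.20 ± 0.06 with it (limma adjusted p = 0.0118). It was no longer called without vehicle replicate 3 (0.16, adjusted p = 0.0735) or without the second array of DHT with dox (0.18, adjusted p = 0.0562), and without DHT also not when arrays were centred on the 13 housekeeping genes (0.15, adjusted p = 0.0748).

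PSMB6, the caspase-like subunit, read 7059.6, 7579 and 7788 on vehicle and 8907, 9183 and 8805 on dox arrays. It read 7702, 7987 and 6891 with DHT and 8329, 9672 and 8377 with both. Again the arrays with and without dox did not overlap. It rose by 0.26 ± 0.07 without DHT and 0.22 ± 0.07 with it, at limma adjusted p of 0.00622 and 0.018, and the second call was lost without DHT replicate 3 (0.16) or the second array of DHT with dox (0.15). PSMB7, the trypsin-like subunit, read 6675, 7029 and 7082 on vehicle and 8377, 8208 and 8349 on dox arrays. It read 7956, 7865 and 6995 with DHT and 9463, 8805 and 9051 with both, so that every array with dox was higher than every array without. Its rise was 0.26 ± 0.06 and 0.26 ± 0.06 (limma adjusted p = 0.00228 and 0.00232), a fold of 1.2 and 1.2. With the middle housekeeping level as the reference, the changes of PSMB5, PSMB6 and PSMB7 turned to -0.14, -0.08 and -0.08 without DHT and to -0.07, -0.05 and -0.01 with it.

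Of the 3 immunoproteasome catalytic subunits, PSMB10 fell and the other 2 were not called. PSMB10, which takes the place of PSMB7, read 2646, 2919 and 2754 on vehicle and 2215, 2499 and 2169 on dox arrays. It read 2899, 3021 and 3113 with DHT and 2673, 2547 and 2734 with DHT and dox. In each comparison the dox arrays lay below their controls without overlap. The change was -0.28 ± 0.07 without DHT (limma adjusted p = 0.00399) and -0.18 ± 0.07 with it (limma adjusted p = 0.047). The call with DHT was near the threshold. Leaving out any 1 of the 6 arrays of that comparison ended it, with adjusted p from 0.0516 to 0.153 and changes from -0.21 to -0.15.

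PSMB8, which takes the place of PSMB5, was close to background. It read 173.5, 168.1 and 156.7 on vehicle, 175.1, 131.3 and 115.0 on dox, 170.3, 163.1 and 175.9 on DHT and 144.6, 171.8 and 153.5 on DHT with dox arrays. Of the dox arrays, 1 was above the limit and as high as the controls while 2 were under it. The changes were -0.26 ± 0.12 and -0.12 ± 0.12 (limma adjusted p = 0.0904 and 0.47). Its other probes passed the limit only through groups without dox or in no group, so their falls are not read as support. PSMB9, which takes the place of PSMB6, was as dim, at 158.2, 160.9 and 169.5 on vehicle and 156.7, 165.0 and 163.5 on dox arrays. It read 162.3, 155.2 and 158.6 with DHT and 143.1, 154.2 and 143.1 with both. Its groups overlapped without DHT, and with DHT the 3 dox arrays were the lower ones. The changes of -0.01 ± 0.08 and -0.11 ± 0.08 were not called (limma adjusted p = 0.943 and 0.299). Its other probe passed the limit in the DHT group alone. Intensities this near background hold mostly background signal, which would shrink any change, and no fall of PSMB8 or PSMB9 is read from them.

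**Figure D2:**
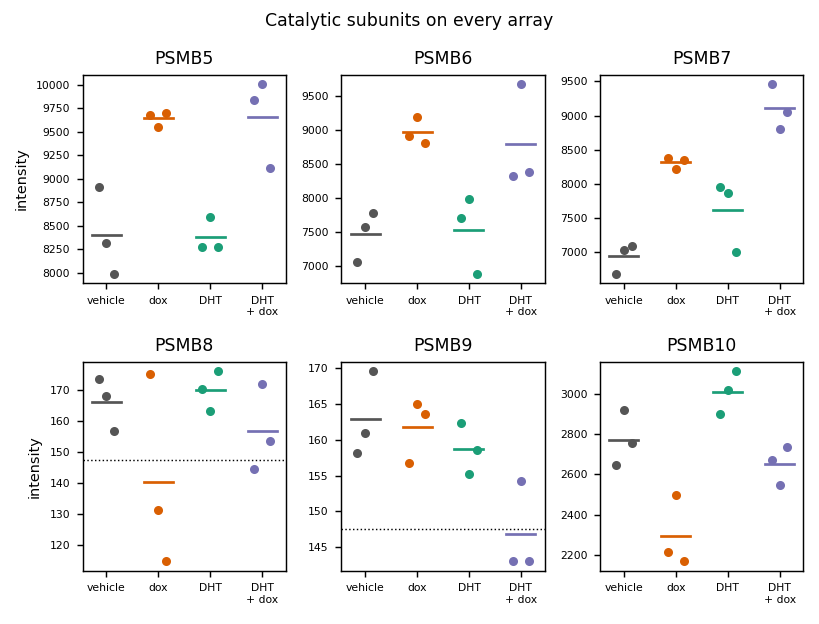
Intensity of the 3 constitutive catalytic subunits (top) and the 3 immunoproteasome subunits that replace them (bottom) on every array, by labelled group. Points are arrays, bars are group means (n = 3), the dotted line is the background limit of 147.5, and the axes differ between panels and do not start at 0. On the deposited scale PSMB5, PSMB6 and PSMB7 sit higher on all arrays with dox. That direction turned against the middle housekeeping level, which shifts all genes of an array alike. PSMB10 sits lower on dox arrays than on their controls, and PSMB8 and PSMB9 lie around the limit.

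The ratio of each immunoproteasome subunit to the subunit it replaces was taken within each array, where scaling cancels, and is given as its log2 difference from the vehicle mean. The ratio of PSMB10 to PSMB7 averaged -0.54 ± 0.13 (SD, n = 3) on dox, -0.01 ± 0.15 on DHT and -0.46 ± 0.05 on DHT with dox arrays. That of PSMB8 to PSMB5 averaged -0.46 ± 0.31, 0.04 ± 0.08 and -0.29 ± 0.12. That of PSMB9 to PSMB6 averaged -0.27 ± 0.04, -0.05 ± 0.12 and -0.38 ± 0.06. For each of the 3 pairs every array with dox had a lower ratio than every array without. A ratio also falls when only its second gene rises. Without DHT, PSMB9 itself changed by -0.01 while PSMB6 changed by 0.26. Averaged over the comparisons without and with DHT, the ratios differed by -0.49, -0.39 and -0.30 on the log2 scale between arrays with and without dox. The ratios were taken up after these values had been seen and are given as a description, with no test. PSMB8 had a mean under the background limit on dox arrays and PSMB9 on DHT with dox arrays, so both entered only through the groups where they were higher, and the ratio of PSMB10 to PSMB7 is the 1 of the 3 with both genes well above the limit on all arrays.

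**Figure D3:**
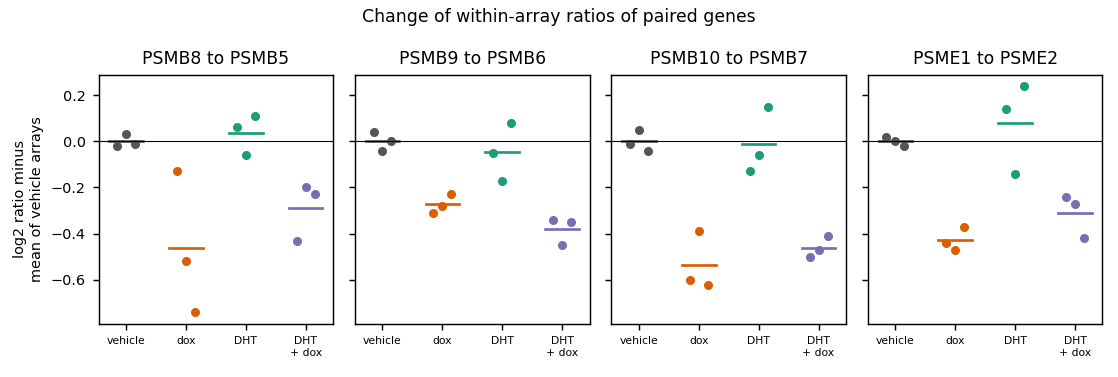
Log2 ratio of paired genes within each array minus its mean over the 3 vehicle arrays, by labelled group, for the 3 catalytic exchanges and for the subunits PSME1 and PSME2 of one activator. Points are arrays and bars are group means. In all 4 panels the 6 arrays with dox lie below the 6 arrays without it.

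The stretches just before the starts of PSMB5 and PSMB10 are shown because these are measured well above background and moved in opposite directions. PSMB6 and PSMB7, which rose as well, had no promoter entry to show. The stretches shown are from RefSeq on GRCh38.p14, both on the minus strand, at chr14:23035221-23035470 for PSMB5 and chr16:67936851-67937100 for PSMB10. Each is 250 bases, written 5′ to 3′ towards the start, with motif matches in capitals. PSMB5 has a further annotated start that is not shown.
PSMB5: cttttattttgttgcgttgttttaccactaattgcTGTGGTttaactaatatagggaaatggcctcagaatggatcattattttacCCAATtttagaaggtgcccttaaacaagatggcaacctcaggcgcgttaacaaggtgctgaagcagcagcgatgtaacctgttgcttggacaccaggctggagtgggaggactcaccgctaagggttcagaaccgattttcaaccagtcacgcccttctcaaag
PSMB10: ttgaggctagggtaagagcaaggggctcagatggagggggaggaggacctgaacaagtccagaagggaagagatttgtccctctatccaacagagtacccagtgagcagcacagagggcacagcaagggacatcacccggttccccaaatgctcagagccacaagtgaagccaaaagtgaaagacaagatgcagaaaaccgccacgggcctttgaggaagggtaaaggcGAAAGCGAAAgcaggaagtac
In PSMB5 the capitals mark TGTGGT, the letters bound by RUNX factors, 215 bases before the start and CCAAT, the letters bound by NF-Y, at 164. In PSMB10 they mark the interferon-stimulated response element core (GAAA, any 2 bases, GAAA) at 21 bases before the start. Both strands were searched, and no match shown overlaps another. Among 53 promoters of 43 members, TGTGGT was in 5.66%, CCAAT in 39.6% and the interferon element core in 9.43%, beside 11%, 32% and 3.02% of all 35116 promoters, each searched over the same 250 bases before its start. The members with that core were PSMA4, PSMB4, PSMB10, PSME2 and PSMG4, of which PSMA4 and PSMG4 were called higher without DHT and PSMB10 lower. With DHT, PSMG4 was called higher and PSMB10 lower. Of all members tested, 37.8% were called higher and 6.67% lower without DHT, and 22.2% and 6.67% with it. The shares of all genes were 16.1% and 16.7%, and 14.3% and 19.2%. PSMB1, PSMB6, PSMB7 and PSMG3, all called higher without DHT, had no promoter entry and are not in the motif shares. A match is a description of letters, not of binding.

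Other subunits of the 20S core were called higher as well. Those called without DHT (PSMA4, PSMA6, PSMB1, PSMB2 and PSMB3) turned to between -0.16 and -0.11 under the shared shift of the middle housekeeping level. Of its 13 constitutive subunits tested, 8 were called higher without DHT and 4 with it, and 0 were called lower in either (limma; 9 and 4 were at an unadjusted p under 0.05). The shares called higher were 61.5% and 30.8%, beside 16.1% and 14.3% of all genes. The median changes were 0.200 and 0.089. Among beta subunits without a catalytic site, PSMB2 read 4104 to 4521 on vehicle, 4688 to 5265 on dox, 3984 to 4369.5 on DHT and 5026 to 5265 on DHT with dox arrays. Its arrays with and without dox did not overlap, and it rose by 0.23 ± 0.07 and 0.31 ± 0.07 (limma adjusted p = 0.00877 and 0.00101). The first was not called when centred on the 13 housekeeping genes (0.18, adjusted p = 0.0674), nor the second against the middle housekeeping level (0.03, adjusted p = 0.833). PSMB1 (0.23 ± 0.07) and PSMB3 (0.20 ± 0.07) were called without DHT and not with it, and the interaction was called for neither. PSMB4 changed by 0.12 and -0.14, neither called. Of the 6 alpha ring subunits tested, PSMA4 (0.20 ± 0.07) and PSMA6 (0.19 ± 0.07) rose without DHT and 0 with it by limma (0 also at an unadjusted p under 0.05). PSMA1, PSMA2, PSMA3 and PSMA5 changed by -0.08 to 0.22 without DHT. For PSMA3 the probe used gave 0.22 and 0.01 without and with DHT. Its second probe, also well above background at a vehicle mean of 2426.4, gave 0.29 and 0.20. Without vehicle replicate 3 the calls of PSMA4, PSMA6, PSMB1 and PSMB3 were lost (0.17, 0.16, 0.17 and 0.19), and so they were without dox replicate 1 (0.16, 0.13, 0.20 and 0.19). Without dox replicate 2 those of PSMA4, PSMA6 and PSMB3 were lost (0.17, 0.18 and 0.17), without vehicle replicate 1 those of PSMA6 (0.20) and PSMB3 (0.20), and without vehicle replicate 2 that of PSMB3 (0.21). Centring on the 13 housekeeping genes ended all 4 (0.15 for PSMA4, 0.14 for PSMA6, 0.18 for PSMB1 and 0.15 for PSMB3). With the mean of probes PSMA4 (0.13, adjusted p = 0.222) and PSMA6 (0.12, adjusted p = 0.116) were not called, since their second probes, also well above background, changed by 0.06 and 0.05.

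The 19S cap held fewer calls. Under the shared shift of the middle housekeeping level, PSMC3 (-0.12), PSMC6 (-0.13) and PSMD12 (-0.08) turned without DHT. PSMD1 (0.02, adjusted p = 0.893) was no longer called there, and with DHT neither were PSMC3 (0.08) and PSMD11 (0.07). Of its 14 subunits tested, 4 were called higher without DHT and 2 with it, and 0 lower (limma; 5 and 4 at an unadjusted p under 0.05), with median changes of 0.109 and 0.051. The shares called higher were 28.6% and 14.3%, beside 16.1% and 14.3% of all genes, so that with DHT the cap stood at the background. PSMC3, an ATPase of the base, was the 1 cap subunit called in both. It read 3386, 3588 and 3377 on vehicle and 3916, 3861 and 4343 on dox arrays. It read 3444, 3694 and 3288 with DHT and 4754, 4518 and 4070.1 with both, and the arrays with and without dox did not overlap. It rose by 0.23 ± 0.07 and 0.35 ± 0.07 (limma adjusted p = 0.0191 and 0.000582). PSMC6, another ATPase, rose by 0.21 ± 0.07 without DHT and changed by -0.04 with it, while its dimmer probe changed by 0.20 and 0.23. Without DHT, PSMC3 was not called without vehicle replicate 1 (0.21), vehicle replicate 3 (0.21) or dox replicate 3 (0.17), and PSMC6 not without vehicle replicate 2 (0.20), vehicle replicate 3 (0.21) or dox replicate 1 (0.15), and neither was when centred on the 13 housekeeping genes (0.18 and 0.16). With the mean of its probes PSMC6 was at 0.21 (adjusted p = 0.0612).

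PSMD1, a scaffold of the base to which ubiquitin receptors bind, was called without DHT and not with it. It read 1207, 1001 and 1049 on vehicle and 1317, 1418 and 1443 on dox arrays. It read 1111, 1123 and 1325 with DHT and 1101, 1184 and 1195 with DHT and dox. The dox arrays stood above the vehicle arrays without overlap, and the groups with DHT overlapped. The changes were 0.36 ± 0.08 (limma adjusted p = 0.00205) and -0.03 ± 0.08 (limma adjusted p = 0.834). The interaction of -0.39 ± 0.12 had the lowest p of the members (0.0037) and was not called (limma adjusted p = 0.24).

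In the lid, PSMD12 rose by 0.27 ± 0.07 without DHT (limma adjusted p = 0.00399) and changed by 0.16 ± 0.07 with it (limma adjusted p = 0.0707). Its arrays with dox, at 4038 to 4878, all lay above those without, at 3522 to 3892. PSMD11 read 348.1, 281.7 and 373.3 on vehicle and 353.3, 341.2 and 368.5 on dox arrays, which overlapped. It read 273.6, 307.0 and 333.0 with DHT and 428.8, 367.8 and 362.8 with both, which did not. Its change was 0.09 ± 0.10 without DHT and 0.34 ± 0.10 with it (limma adjusted p = 0.0143), and the latter was no longer called without DHT replicate 1 (0.27) or the first array of DHT with dox (0.27) and was 0.53 with background subtracted. PSMD14, the enzyme that cuts ubiquitin chains off substrates, changed by 0.12 ± 0.09 and 0.21 ± 0.09, neither called. PSMD3, PSMD6 and PSMD8 of the lid and PSMD2 and PSMD4 of the base were not called in either comparison. Of PSMD5, PSMD9 and PSMD10, chaperones that assemble the base, 0 were called by limma in either (0 also at an unadjusted p under 0.05), with changes of -0.02 to 0.04 without DHT and -0.07 to 0.11 with it.

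Chaperones that assemble the 20S core gave the largest rises among the proteasome's own genes, PSMG1 and PSMG3 without DHT and PSMG4, PSMG1 and PSMG3 with it. Of PSMG1 to PSMG4, 3 were called higher in each dox comparison, beside 16.1% and 14.3% of all genes, with median changes of 0.370 and 0.417. PSMG1, which pairs with PSMG2 to build the alpha ring, read 3299, 2762 and 2991 on vehicle and 4427, 4548 and 4409 on dox arrays. It read 2911, 3249 and 3444 with DHT and 4184, 4372 and 4335 with both, so that the arrays with dox were all well above the others. It rose by 0.57 ± 0.07 without DHT, 1.48-fold (limma adjusted p = 3.34e-06), and by 0.43 ± 0.07 with it (limma adjusted p = 9.63e-05). Its second probe gave 0.63 and 0.52. With the middle housekeeping level as the reference its change kept its sign but not the call (0.22 and 0.15). PSMG2, its partner, read 3183, 3249 and 3472 on vehicle and 3428, 3349.9 and 3566 on dox arrays. It read 3714, 3767 and 3429.8 with DHT and 3105, 3525 and 3220.4 with both, its groups overlapped, and its changes of 0.06 ± 0.07 and -0.15 ± 0.07 were not called.

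PSMG3, which pairs with PSMG4 and acts on the early alpha ring, read 626.5, 679.3 and 553.2 on vehicle and 796.8, 840.3 and 873.8 on dox arrays. It read 686.5, 560.9 and 588.1 with DHT and 779.0, 770.2 and 879.1 with both, again without overlap between arrays with and without dox. It rose by 0.44 ± 0.09 and 0.41 ± 0.09 (limma adjusted p = 0.000825 and 0.00158), 0.09 and 0.13 with the middle housekeeping level as the reference. PSMG4 read 826.5, 845.7 and 764.5 on vehicle, 915.9, 924.6 and 893.6 on DHT, 1105, 925.2 and 978.4 on dox and 1386, 1227 and 1186 on DHT with dox arrays. These 4 groups rose in that order without overlap. Dox changed it by 0.30 ± 0.08 without DHT and by 0.47 ± 0.08 with it (limma adjusted p = 0.00639 and 0.000105). Its dimmer probe, at the background limit, changed by -0.07 in each, and the call without DHT was lost with the mean of both probes (0.12, adjusted p = 0.232) and without dox replicate 1 (0.23, adjusted p = 0.0508), while with DHT the mean of both probes gave 0.20. With the middle housekeeping level its change without DHT turned to -0.04, and that with DHT was no longer called (0.20, adjusted p = 0.168).

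The stretch before the start of PSMG1 is shown as that of the subunit or chaperone with the largest rise. It lies on the minus strand of GRCh38.p14 at chr21:39183515-39183701 and is from RefSeq. The 63 bases next to the start lie inside the annotated gene and are left out, so 187 bases are shown.
PSMG1: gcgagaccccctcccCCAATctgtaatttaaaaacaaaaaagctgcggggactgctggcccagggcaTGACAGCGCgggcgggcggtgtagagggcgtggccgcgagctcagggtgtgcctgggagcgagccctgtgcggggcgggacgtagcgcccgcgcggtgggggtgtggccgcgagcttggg
The capitals mark CCAAT at 235 bases before the start and TGACNNNGC at 183, the core of the antioxidant response element, which NFE2L1 and NFE2L2 are known to bind. TGACNNNGC was in 22.6% of the members' promoters and in 10.9% of all promoters. It was in 12 members, of which PSMA4, PSMB3, PSMD12 and PSMG1 were called higher and PSME1 lower without DHT. Of all members tested, 37.8% were called higher and 6.67% lower there, and of all genes 16.1% and 16.7%. With DHT only PSMG1 of the 12 was called higher and PSME1 lower. Among 6 promoters of 5 subunits or chaperones called higher in both dox comparisons, 16.7% held it. A link between these letters and the calls was not tested. The other motifs searched were CACGTG (the E-box, 9.43% of members' and 6.34% of all promoters), TTCNNNGAA (the gamma-activated site, 13.2% and 6.57%), the estrogen response element (GGTCA, any 3 bases, TGACC, 0% and 0.0399%) and AGAACA (the androgen receptor core letters, 11.3% and 12.4%).

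The activators, which open the gate of the core, went different ways. PSME1, the alpha subunit of the interferon-inducible 11S cap, read 9768, 9945 and 9183 on vehicle and 7715, 7565 and 7624 on dox arrays. It read 10392, 8521 and 11366 with DHT and 8108, 8094 and 7865 with both. All arrays with dox lay below all arrays without it. It fell, with changes of -0.33 ± 0.08 and -0.32 ± 0.08 (limma adjusted p = 0.00196 and 0.00269). Its second probe, near the background limit at a vehicle mean of 151.9, changed by 0.06 and -0.10, and the mean of both probes lost the call without DHT (-0.14, adjusted p = 0.124) and gave -0.21 with it.

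PSME2, the beta subunit of the same cap, read 6039.8, 6228 and 5823 on vehicle and 6545, 6575 and 6156 on dox arrays. It read 5918, 5862 and 6047 with DHT and 6007, 6108 and 6582 with both. Its groups overlapped in each comparison and its changes of 0.09 ± 0.06 and 0.07 ± 0.06 were not called. The ratio of PSME1 to PSME2 within arrays averaged -0.43 ± 0.05 (SD, n = 3) on dox, 0.08 ± 0.19 on DHT and -0.31 ± 0.09 on DHT with dox arrays, relative to vehicle. Over both comparisons arrays with dox differed by -0.41 from those without, and by -0.25 with the mean of the probes. This ratio too is a description, with no test.

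PSME1 and PSME2 lie 4402 bases apart on chromosome 14, and the stretches before their starts are shown because the genes parted. They are from RefSeq on GRCh38.p14, at chr14:24135944-24136193 on the plus strand for PSME1 and chr14:24146611-24146860 on the minus strand for PSME2.
PSME1: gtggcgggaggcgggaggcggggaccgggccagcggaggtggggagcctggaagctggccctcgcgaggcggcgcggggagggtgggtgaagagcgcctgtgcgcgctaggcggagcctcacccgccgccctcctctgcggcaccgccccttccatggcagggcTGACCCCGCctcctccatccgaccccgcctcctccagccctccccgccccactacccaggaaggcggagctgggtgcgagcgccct
PSME2: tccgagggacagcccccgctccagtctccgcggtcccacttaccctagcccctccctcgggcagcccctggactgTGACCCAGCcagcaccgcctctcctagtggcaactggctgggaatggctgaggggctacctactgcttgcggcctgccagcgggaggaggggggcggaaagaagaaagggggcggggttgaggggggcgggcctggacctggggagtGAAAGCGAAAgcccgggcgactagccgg
The capitals mark TGACNNNGC at 86 bases before the start of PSME1 and at 175 before that of PSME2, and the interferon element core at 28 before that of PSME2. The stretch of PSME1 holds no interferon element core, which says only that these letters are not in this window.

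PSME3, the nuclear activator known as PA28 gamma, was called for dox and for DHT. It read 503.9, 392.6 and 494.8 on vehicle and 610.9, 540.1 and 611.1 on dox arrays. It read 646.2, 643.7 and 647.7 with DHT and 714.3, 756.2 and 682.0 with both. The 4 groups did not overlap and stood in the order vehicle, dox, DHT and both. On dox arrays it rose by 0.35 ± 0.09 without DHT (limma adjusted p = 0.00543). That call did not stand when vehicle replicate 2 was left out (0.23, adjusted p = 0.0517) or against the middle housekeeping level (0.00, adjusted p = 0.983). The dox change of PSME3 with DHT present was 0.15 ± 0.09 (limma adjusted p = 0.222). Its second probe gave 0.38 and 0.15. PSME4, a large single-chain activator, read 2062, 2017 and 1963 on vehicle and 2271, 2061 and 2227 on dox arrays, and 2132, 2385 and 2378 and 2379.9, 2353 and 2168 with DHT and with both. Its groups overlapped in each dox comparison, and its dox changes of 0.12 ± 0.07 and 0.00 ± 0.07 were not called. The DHT arrays of PSME4 lay above its vehicle arrays without overlap. That change of 0.19 ± 0.07 was not called (limma adjusted p = 0.106).

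**Figure D4:**
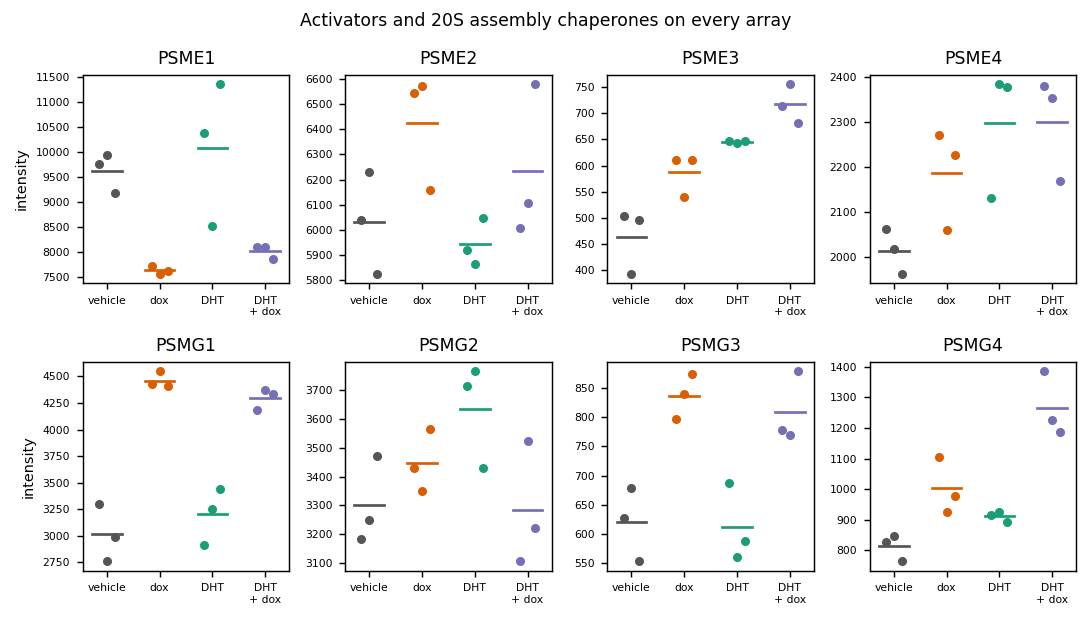
Intensity of the 4 activator genes (top) and the 4 chaperone genes of 20S assembly (bottom) on every array, by labelled group. Points are arrays, bars are group means (n = 3), and the axes differ between panels and do not start at 0. PSME1 sits lower and PSMG1 and PSMG3 sit higher on all arrays with dox, and the 4 groups of PSME3 do not overlap.

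DHT moved few members. Against vehicle, 1 of 45 was called higher and 0 lower by limma (7 at an unadjusted p under 0.05), beside 4.50% and 3.10% of all genes. In dox-treated cells 1 was called higher and 0 lower (10 at an unadjusted p under 0.05), beside 2.04% and 2.24%. These shares are close to the background. The call against vehicle was PSME3, at 0.49 ± 0.09, 1.4-fold (limma adjusted p = 0.00195), with 0.43 for its second probe, and it was kept under every alternative run. In dox-treated cells PSME3 changed by 0.29 ± 0.09 (limma adjusted p = 0.0788). The call there was PSMG4, at 0.34 ± 0.08 (limma adjusted p = 0.0202), which was lost when its probes were averaged (0.17, adjusted p = 0.219) and without dox replicate 2 (0.28), dox replicate 3 (0.32) or the first array of DHT with dox (0.27).

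The catalytic subunits showed 0 calls for DHT by limma in either comparison (1 of 3 constitutive subunits, PSMB7, at an unadjusted p under 0.05 in each, and PSMB10 in dox-treated cells). PSMB5 changed by -0.00 ± 0.06 and 0.00 ± 0.06, PSMB6 by 0.01 ± 0.07 and -0.03 ± 0.07, and PSMB7 by 0.13 ± 0.06 and 0.13 ± 0.06. PSMB10 changed by 0.12 ± 0.07 against vehicle and by 0.21 ± 0.07 in dox-treated cells (limma adjusted p = 0.354 and 0.0903). These comparisons share arrays with the dox comparisons, so their values are given side by side only.

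**Figure D5:**
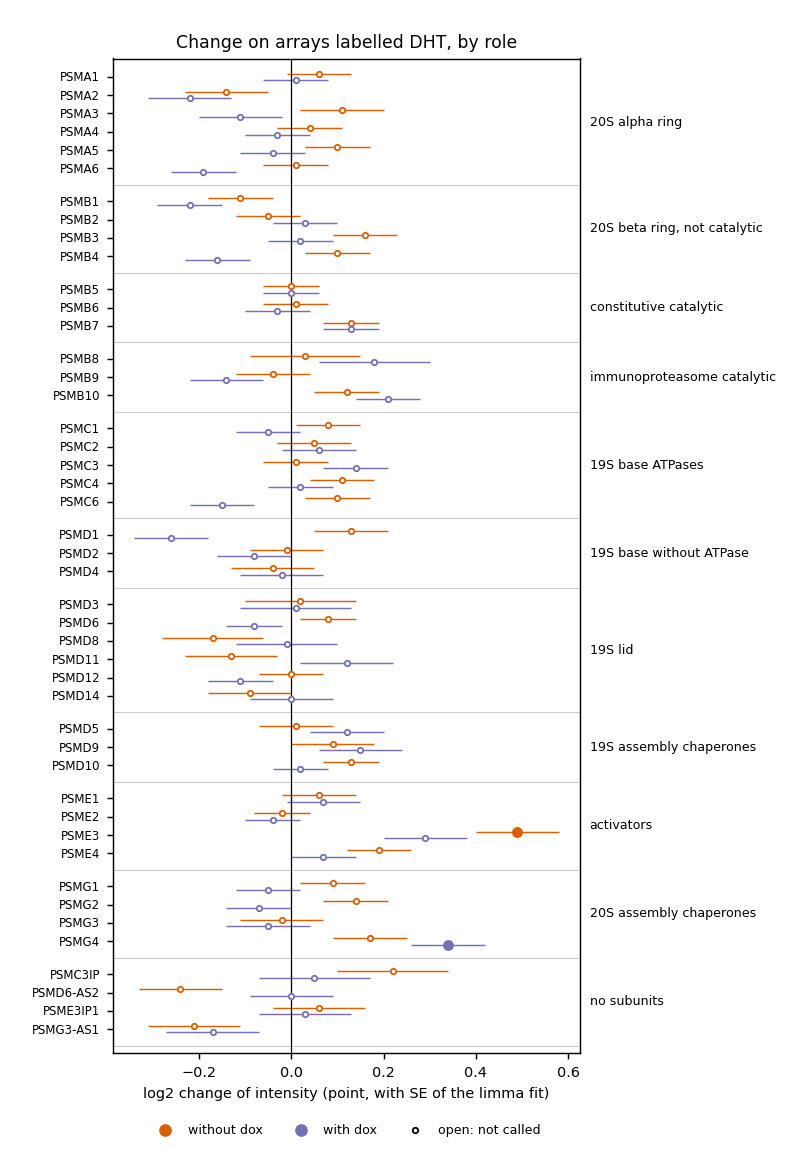
Log2 change of intensity on arrays labelled DHT for each of the 45 members tested, grouped by role, without dox (orange) and with dox (purple). Points are the limma estimates with SE bars (3 arrays a group), filled where the change was called. PSME3 without dox and PSMG4 with dox are the filled points.

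Of the 4 genes that share only the name, 2 gave the largest changes of all members in the dox comparisons. PSMC3IP, a factor of homologous recombination named for its binding to PSMC3, read 204.8, 193.6 and 191.8 on vehicle and 373.3, 324.9 and 280.4 on dox arrays. It read 263.0, 199.5 and 229.0 with DHT and 314.0, 299.8 and 398.2 with both, and arrays with and without dox did not overlap. It rose by 0.72 ± 0.12 and 0.55 ± 0.12 (limma adjusted p = 6.93e-05 and 0.00113), and by 1.39 and 0.98 with background subtracted. PSMG3-AS1, a noncoding RNA gene, read 461.1, 515.5 and 557.1 on vehicle and 312.6, 320.8 and 362.6 on dox arrays. It read 488.9, 415.4 and 425.5 with DHT and 283.9, 281.4 and 320.7 with both, so that all arrays with dox were lower than all without. It fell, with changes of -0.62 ± 0.10 and -0.58 ± 0.10 (limma adjusted p = 2.85e-05 and 5.65e-05). With background subtracted the changes were -0.88 and -0.88. PSMG3, which lies 40 bases away on chromosome 7 in GRCh38.p14, rose. PSME3IP1 and PSMD6-AS2 were not called in any comparison.

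Genes that work with the proteasome were called about as often as all genes or less. Of 24 ubiquitin receptors, deubiquitinases, shuttle factors and regulators tested, 3 were higher and 4 lower on dox arrays without DHT, and 3 and 3 with DHT. The shares were 12.5% and 16.7% without DHT, beside 16.1% and 16.7% of all genes, and 12.5% and 12.5% with it, beside 14.3% and 19.2%. UCHL5, a deubiquitinase of the 19S cap, rose by 0.32 ± 0.09 and 0.35 ± 0.09 (limma adjusted p = 0.0116 and 0.00632). UBQLN4, a shuttle that brings ubiquitinated proteins to the proteasome, rose by 0.25 ± 0.09 and 0.23 ± 0.09. NFE2L2, a transcription factor of the antioxidant response, fell, with changes of -0.26 ± 0.08 and -0.28 ± 0.08. UBA1, the main ubiquitin-activating enzyme, also fell (-0.22 ± 0.08 and -0.31 ± 0.08). The next are named for their role and not for their change. NFE2L1, known to raise proteasome genes when the proteasome is inhibited, changed by -0.11 ± 0.09 and -0.17 ± 0.09, and the 20S maturation factor POMP by 0.05 ± 0.06 and 0.12 ± 0.06, none called. USP14, another deubiquitinase of the cap, was called for DHT against vehicle (0.35 ± 0.08, limma adjusted p = 0.0105).

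Genes of antigen processing, which the immunoproteasome serves, were more often lower than higher with dox. Of 14 tested, 7 were called lower and 0 higher without DHT (limma; 7 at an unadjusted p under 0.05), and 6 lower and 1 higher with it. The shares called lower were 50% and 42.9%, beside 16.7% and 19.2% of all genes. TAP1, a subunit of the peptide transporter, read 792.7, 777.3 and 768.7 on vehicle and 539.9, 527.2 and 606.3 on dox arrays. It read 889.3, 893.0 and 1109 with DHT and 576.4, 588.4 and 674.9 with both, lower on all arrays with dox. It fell, with changes of -0.49 ± 0.09 and -0.65 ± 0.09 (limma adjusted p = 0.000296 and 1.1e-05). TAPBP, which loads peptides onto class I molecules, changed by -0.48 ± 0.09 and -0.57 ± 0.09, and B2M, the class I light chain, by -0.27 ± 0.08 and -0.54 ± 0.08, all called lower. The interferon response factors IRF1 (-0.35 ± 0.09 and -0.54 ± 0.09) and IRF9 (-0.68 ± 0.20 and -1.16 ± 0.20) fell as well. IRF9 read 1786, 1924 and 3980 with DHT and 1092, 1240 and 899.1 with both, so its larger change leaned in part on 1 DHT array. In each comparison 7 of the 14 were not called, among them TAP2 (0.03 and 0.03), HLA-B (-0.17 and -0.12) and HLA-C (0.15 and -0.02). ERAP2, a peptidase that trims such peptides, fell on dox arrays without DHT (-0.41 ± 0.13) and rose with it (0.38 ± 0.13), and it was lower with DHT against vehicle (-0.78 ± 0.13). The interaction was called for 0 of the 14 by limma, with 2 at an unadjusted p under 0.05. The list was chosen with earlier results of these data known and is no independent support for the members.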

How the data were processed

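RNA of 12 cultures was measured on 12 single-colour Illumina bead arrays in 4 groups of 3. The deposited values are linear intensities with 0 missing values, made in GenomeStudio per the submitters' processing notes, with version, background and normalization settings not given in the sources used here. The sorted columns of the deposited intensity table differed by at most 0.8 units, so the authors' values were already quantile-matched and no further normalization was applied. A shift shared by all genes is therefore not visible.

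Of 47230 probes, 30113 had 1 gene symbol, 8 had several and 17109 had none. Symbols were updated through gene IDs. As the background limit, 147.5 was taken from the 95th percentile of 640 probes of olfactory and taste receptor, keratin-associated and defensin genes. The brightest probe stood for a gene, and 12122 genes with a group above the limit were tested. Log2 intensities were fitted with limma 3.58.1 in R 4.3.3 (4 group means, moderated tests with a trend, two-sided, Benjamini-Hochberg over all genes, threshold 0.05). Ratios within arrays and promoter searches used Python 3.11.15 with numpy 2.4.6 and pandas 2.3.3. Replicate arrays correlated with r of 0.9938 to 0.9954. Only 3 arrays a group limit the precision.

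The fit was tested on simulated data, where small changes were often not called. A member that was not called may therefore still have changed. Values on every array are given for the catalytic pairs, the 4 activators, PSMG2 as the partner of PSMG1, and up to 8 called members with the largest change in each comparison. From the other lists up to 5 called genes with the largest change are named, with a tie keeping B2M and IRF1. The members and lists were chosen with earlier results of these data known. Same-numbered arrays correlated in their deviations with r of -0.121 to 0.208 over 18 pairs, 1 of them over 0.1, so replicate numbers were not taken to pair arrays. The alternatives were filters, background subtraction with a floor of 20, the mean of probes, other fits and scalings, and each array left out.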

Additional observations from a re-analysis of the deposited data

How the results depend on the processing

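Intensities are compressed towards background, so the called changes of PSMC3IP and PSMG3-AS1, which are among the dimmer members, can understate the fold. PSMB8 and PSMB9 lie around the limit and were not called, and no larger change is read for them. With background subtracted PSMC3IP changed by 1.39 and 0.98 and PSMG3-AS1 by -0.88 and -0.88 without and with DHT. In dox against vehicle, members called higher numbered 9 after centring on housekeeping genes, and leaving out 1 array gave 10 to 19 higher, 3 to 4 lower and 3357 to 4010 of all genes. In DHT with dox against DHT, leaving out 1 array gave 8 to 12 higher, 2 to 3 lower and 3460 to 4082 of all genes, and the mean of probes gave 5 lower, among them PSMB8 and PSMB9, whose added probes passed the limit only through groups without dox. In DHT against vehicle the ranges were 1 to 1, 0 to 0 and 549 to 925, and in DHT with dox against dox 0 to 2, 0 to 1 and 253 to 538, with 0 higher for the mean of probes. For the interaction 0 to 0 members and 9 to 52 of all genes were called, and 18 of all genes with background subtracted and also after centring on housekeeping genes. The 4 ratios of paired genes, taken up after their values were seen, kept their direction in each alternative. With 1 array left out they ranged from -0.48 to -0.32 for PSMB8 to PSMB5, -0.33 to -0.27 for PSMB9 to PSMB6, -0.53 to -0.45 for PSMB10 to PSMB7 and -0.46 to -0.37 for PSME1 to PSME2. Since PSMB8 and PSMB9 lie around the limit and entered through the groups where they were higher, a kept direction of their ratios is no support for a fall of either gene. The replicate block, a hint only since the numbers do not pair the arrays, gave 18 higher and 3 lower without DHT and 10 and 2 with it, where PSMB10 lost its call (-0.18, adjusted p = 0.0542) and PSMA3 gained one without DHT (adjusted p = 0.0231). Centring on the middle housekeeping level, added after seeing the data, uses different genes on different arrays and by its construction shifts all genes of an array alike. It called 1 member higher and 20 lower of 7850 genes called in dox against vehicle, 0 and 18 of 6374 in DHT with dox against DHT, 284 of all genes in DHT against vehicle, and 0 members higher and 134 of all genes in DHT with dox against dox. Of changes called with or without it, 26 turned sign, which measures that shared shift. Without DHT these were PSMA4 (-0.15), PSMA5 (-0.26), PSMA6 (-0.16), PSMB1 (-0.11), PSMB2 (-0.11), PSMB3 (-0.14), PSMB5 (-0.14), PSMB6 (-0.08), PSMB7 (-0.08), PSMC2 (-0.26), PSMC3 (-0.12), PSMC4 (-0.28), PSMC6 (-0.13), PSMD10 (-0.30), PSMD12 (-0.08), PSMD3 (-0.30), PSMD4 (-0.32), PSMD6 (-0.26), PSME2 (-0.25), PSMG2 (-0.28) and PSMG4 (-0.04). With DHT they were PSMA3 (-0.27), PSMB5 (-0.07), PSMB6 (-0.05), PSMB7 (-0.01) and PSME4 (-0.27). 0 called changes reversed under the other alternatives run.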

Other observations

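Where a member had more than 1 probe above the background limit, the probes give a second reading of the same RNA on the same arrays. The second probe of PSMA1, an alpha ring subunit, changed by 0.35 on dox arrays without DHT and 0.15 with it, where the brightest probe gave 0.14 and 0.09. The other probes of PSMC3IP gave 0.53 and 0.40 without DHT and 0.32 and 0.55 with it. Which regions these probes read is not stated, and which reading is nearer to the total transcript was not tested.

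The ratio of PSMG3-AS1 to PSMG3 within arrays, relative to the vehicle mean, averaged -1.06 ± 0.06 (SD, n = 3) on dox, -0.19 ± 0.03 on DHT and -1.18 ± 0.00 on DHT with dox arrays, with an SD of 0.25 on vehicle arrays. The ratio of PSME1 to PSME3 averaged -0.68 ± 0.09, -0.43 ± 0.21 and -0.90 ± 0.06. These ratios were picked after their values were seen and were not tested.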
